A study of Mus musculus with 6 samples.

Results

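Gas5, Snhg1, Snhg3, Snhg6, Snhg8 and Snhg12 are noncoding genes that carry small nucleolar RNAs (snoRNAs) inside their transcripts. They were chosen by name, as the noncoding snoRNA host genes of a fixed list, and are 6 of the 55376 genes in the count tables. The 6 libraries are RNA immunoprecipitation sequencing (RIP-seq) of satellite cells (SCs), the stem cells of skeletal muscle, from C57BL/6 mice at 3 months of age. Input (2 libraries) had no antibody, IgG (2 libraries) was precipitated with anti-IgG as the background control, and CPEB1 IP (2 libraries) with anti-CPEB1. The labels give no transgene or treatment for any group, and the cells were sorted fresh from muscle as CD31-, CD45-, Sca1- and Vcam1+, a gate set against endothelial, blood and fibro-adipogenic cells. The comparison asks which RNAs come down with CPEB1, a protein that binds a short U-rich element in mRNAs and controls poly(A) tail length and translation. The study describes the pair of libraries in each group as independent experiments and biological replicates, and the labels do not say how many mice each came from.

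A snoRNA host gene is transcribed by RNA polymerase II as a long precursor. Splicing releases introns from which snoRNAs are trimmed, and these guide the methylation or pseudouridylation of ribosomal RNA. The spliced host RNA of many such genes begins with a 5′ terminal oligopyrimidine (TOP) tract, a C followed by C and T bases that ties translation to growth signals, and several spliced hosts are degraded by nonsense-mediated decay while they are translated. Gas5 was named for its accumulation in growth-arrested cells.

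The windows below show annotated starts of transcription, where the TOP tract of many genes of this class lies. Each holds 15 bases before and 15 bases from the annotated RefSeq start (GRCm38.p6), on the strand of the gene, with the longest run of C and T that begins with C in capitals. Of the 6 members, 5 were matched in the RefSeq promoter set, with 2 starts for Gas5; Snhg6 was not.
Gas5, upstream start, chr1:161034586-161034615, plus strand: agggggcgggCCCgcgagctcgacagcccg
Gas5, downstream start, chr1:161035151-161035180, plus strand: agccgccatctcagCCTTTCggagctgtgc
Snhg1, chr19:8723472-8723501, plus strand: gttgttcttgtcggCCTCatttttccttgt
Snhg3, chr4:132353672-132353701, minus strand: tagtcgaccacgcctgaCTTCCgggcgtta
Snhg8, chr3:123508322-123508351, minus strand: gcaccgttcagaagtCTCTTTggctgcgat
Snhg12, chr4:132308663-132308692, plus strand: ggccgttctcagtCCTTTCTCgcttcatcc

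The run was longest in Snhg12, at 8 bases, and covered the annotated start in Snhg1, Snhg8, Snhg12 and the downstream start of Gas5. A run of at least 5 bases stood in 4 of these 6 windows and in 36.4% of all 32851 promoter windows of that length. A stricter pattern, chosen after the sequences were seen, asked for a C at the annotated start followed by 4 pyrimidines. It was met by Snhg8 and the downstream start of Gas5, and by 2.51% of all windows. The upstream start of Gas5 and the start of Snhg3 do not begin inside such a run.

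CPEB1 binds the cytoplasmic polyadenylation element (CPE), which in mRNAs lies near the poly(A) signal. Both strict forms, TTTTAT and TTTTAAT, were searched on the transcribed strand of every GENCODE M21 transcript of the 6 genes. There were 13 sites in 5 of the genes, 9 of TTTTAT and 4 of TTTTAAT, and no match in Snhg3. The windows printed here, 1 or 2 for each gene with a match, hold the site in capitals and show how the genes differ in where the site lies (mm10).
Gas5, chr1:161037101-161037130, plus strand: gaggtattttcTTTTAATtctagttaactg
Snhg1, chr19:8725676-8725705, plus strand: aagtaggaaattTTTTATgctaatactagc
Snhg6, chr1:9942712-9942741, minus strand: gttcacaaataTTTTAATttttaggtgcaa
Snhg8, chr3:123507570-123507599, minus strand: gaaaattgaataTTTTATattaaataaaag
Snhg8, chr3:123507592-123507621, minus strand: ggaatcttcgcTTTTAATttttgaaaattg
Snhg12, chr4:132309216-132309245, plus strand: aaaaagccgccaTTTTATtcagctaaacct

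All 8 sites of Gas5 and Snhg1 were in transcripts annotated as retaining an intron, and in none of their spliced forms. In Snhg8 both sites were present in 3 of 3 transcripts and lay close to the 3′ end of the gene. The single site of Snhg6 was in 2 of 5 transcripts, and each of the 2 sites of Snhg12 in 2 of 10. Such matches are common. Among genes whose longest transcript was within 20% of the member's length, that transcript alone held a site in 70.9% for Gas5, 73.4% for Snhg1 and 49.7% for Snhg12. The share was 25.6% for Snhg6, 23.3% for Snhg8 and 15.9% for Snhg3. Counted in the same way, the longest transcript held 1 site in Gas5, 4 in Snhg1, 2 in Snhg12, 1 in Snhg6, 2 in Snhg8 and 0 in Snhg3. The letters alone say nothing of CPEB1 binding.

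The 6 genes also differ in how much of their span was counted. Merged exons of all annotated transcripts cover 100% of the span of Snhg1 (chr19:8723475-8726443), Snhg8 (chr3:123507552-123508404) and Snhg12 (chr4:132308623-132311024), and 91.3% of that of Gas5 (chr1:161034422-161038539). Of the transcripts, 20 of 25 for Gas5 and 14 of 18 for Snhg1 retain an intron. Any reads from unspliced precursor would thus be counted with those from spliced RNA in these genes, and they were not separated. Exons cover 53.1% of the span of Snhg6 (chr1:9941959-9944118) and 17.4% of that of Snhg3 (chr4:132348014-132353686). Gas5 holds 9 of the 25 nested snoRNA genes, Snhg1 holds 8, Snhg12 holds 4, Snhg3 holds 2, and Snhg6 and Snhg8 hold 1 each.

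**Figure D1:**
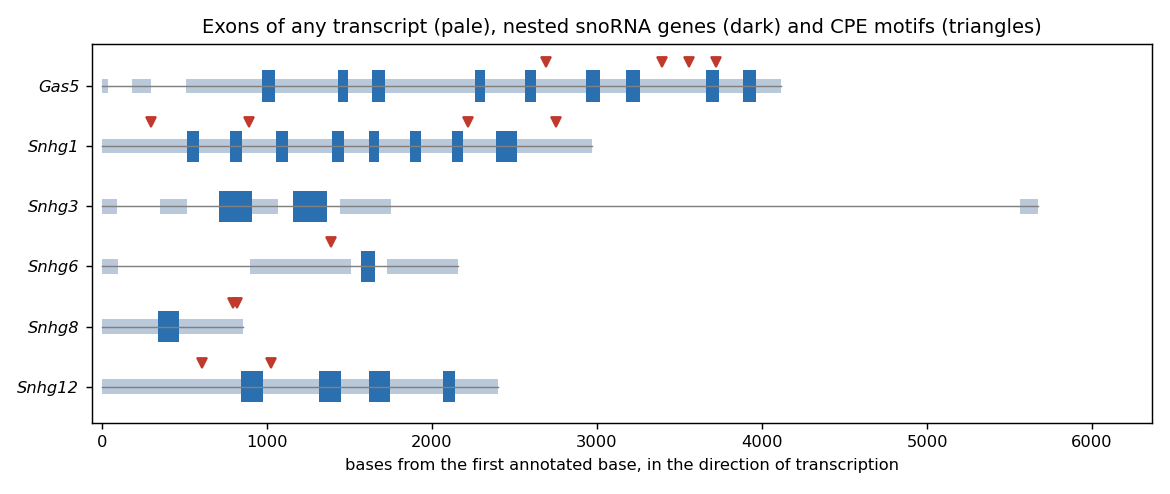
Maps of the 6 host genes in bases from the first annotated base, with merged exons of any transcript as pale bars, nested snoRNA genes as dark boxes and CPE motifs as triangles. Gas5 and Snhg1 hold 9 and 8 snoRNA genes spread along nearly continuous exon bars, and Snhg8 has its 2 motifs at the far end.

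The nested snoRNAs themselves were almost uncounted. Of the 25 snoRNA genes, 22 lie wholly inside the counted exons of their host, and all 22 were at 0 in every library. The only nested gene with counts, 7 over the 6 libraries, was in Snhg6, in an intron that no annotated host exon covers. Whether reads from snoRNAs inside host exons were discarded as belonging to 2 genes or were not captured cannot be told apart, since the library method (SMART-seq2) primes on poly(A) tails, which mature snoRNAs lack. The counts described here are therefore those of the host RNA outside its snoRNAs.

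Counts on genes ranged from 1284716 to 4941653 per library. The libraries differ in 1 respect that touches every result: reads on genes were 39.1% to 39.5% of the total behind the FPKM in IgG, 69.5% to 69.9% in CPEB1 IP and 71.1% to 79.8% in input. For that reason the fold changes of the 5 tested members are given with TMM scaling, which sets most genes to no change, and with library sizes taken from the FPKM total. Other genes are given with TMM scaling unless the FPKM total is named.

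All 8 satellite cell markers had counts in all 6 libraries, at a summed 9550 to 11649 CPM, which scales counts to the counts on genes of a library. Single markers moved in opposite directions beneath that sum: with TMM scaling 1 was higher and 5 were lower in IgG than in input, 1 was higher and 3 were lower in CPEB1 IP than in input, and 4 were higher and 0 lower in CPEB1 IP than in IgG. Pax7, the transcription factor that marks satellite cells, had 328 and 338 CPM in input, 94.96 and 81.7 in IgG and 85.0 and 90.7 in CPEB1 IP. Cdh15, a cadherin of these cells, had 684 and 580 CPM in input, 81.7 and 74.3 in IgG and 116 and 140.0 in CPEB1 IP. Myod1, the factor of activated satellite cells, was the marker that was higher over input with TMM scaling, also in CPEB1 IP with the FPKM total (1.12) but not in IgG with it (0.06, edgeR adjusted p = 0.759). It had 1058 and 906 CPM in input, 1977 and 1930 in IgG and 2377 and 2226 in CPEB1 IP.

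In input, the host genes spanned a wide range. FPKM divides counts by the merged exon length of all annotated transcripts and by the library total. The order of genes therefore depends on that annotation. Merged exons held 3760 bases for Gas5, 2969 for Snhg1 and 1146 for Snhg6, beside median transcripts of 629, 602.5 and 559 bases. For Snhg8 these were 853 and 528 bases. Gas5 stood at 95.7 and 90.0 FPKM in the 2 input libraries, above 98.4% of the 23370 genes listed above 0 there. Snhg8 followed at 22.9 and 33.3 FPKM, Snhg6 at 18.0 and 20.4, and Snhg1 at 13.3 and 15.2. Snhg12 had 6.42 and 8.32 FPKM. Snhg3 had 0.441 and 0.489, on 2 counts in each library. No neighbours in this order overlapped between their input libraries, although with 2 libraries an exact permutation test cannot give a p below 0.333.

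By FPKM with these lengths, the order changed after precipitation at a single gene. In CPEB1 IP, Gas5 was at 77.9 and 83.0 FPKM and Snhg8 at 24.3 and 30.3. Snhg1, at 19.6 and 23.9 FPKM, was above Snhg6, at 18.3 and 18.8, the reverse of input. In IgG, Snhg1 came next to the top by its mean, at 21.5 and 22.2 FPKM, behind Gas5 at 66.9 and 79.9. Snhg8, at 20.2 and 19.6 FPKM, and Snhg6, at 15.8 and 22.8, could not be separated there. The higher Snhg6 value was also above both of Snhg1. Snhg12 stayed below these 4 genes and above Snhg3 in each group, with 6.92 and 4.79 FPKM in IgG and 6.58 and 7.26 in CPEB1 IP.

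**Figure D2:**
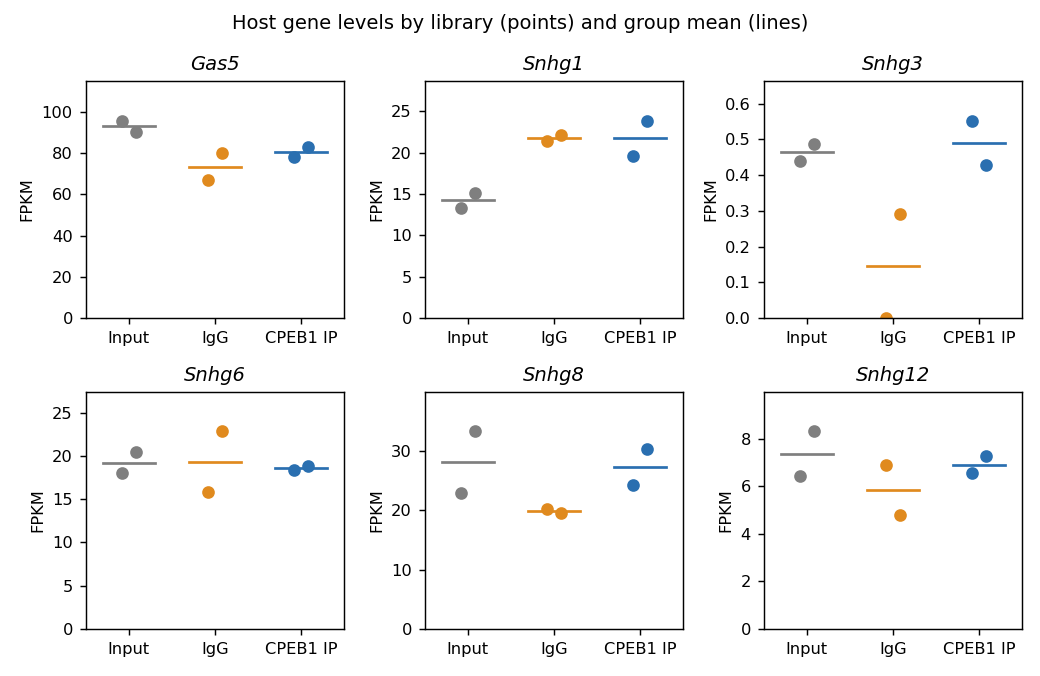
FPKM of each host gene in every library, with 1 point per library, a line at the mean of 2 libraries and an axis from 0 in each panel. Snhg1 is the gene whose IgG and CPEB1 IP points, 19.6 to 23.9 FPKM, all lie above its input points of 13.3 and 15.2.

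None of the 5 host genes that could be tested was higher in CPEB1 IP than in IgG, and Gas5, Snhg1 and Snhg6 were lower with TMM scaling. That is 3 of 5 members called lower, against 18.7% of the 12124 genes tested, and 0 of 5 called higher, against 14.7%. Their median log2 fold change was -0.67, and that of all genes was -0.01. Snhg3 did not pass the filter on low counts. The direction rests on the scaling: with library sizes from the FPKM total, the median of all genes moved by 0.81 to 0.80, the members' median was 0.13 and no member was called. All 5 members lay below the median gene. The change of scaling moves all genes nearly alike, so that this held under both scalings adds no support.

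Gas5 had 1074 and 2220 counts in CPEB1 IP and 817 and 1045 in IgG, or 447 and 458 CPM against 621 and 761. The quasi-likelihood test of edgeR, adjusted by Benjamini-Hochberg, put Gas5 1.60-fold lower in CPEB1 IP (log2 fold change -0.67, SE 0.10, adjusted p = 5.16e-05). The FPKM total gave 0.13 with an adjusted p of 0.195. Snhg1 had 214 and 504 counts in CPEB1 IP and 207 and 229 in IgG, or 89.2 and 104 CPM against 157 and 167. It was 1.74-fold lower in CPEB1 IP by the same edgeR test (log2 fold change -0.80, SE 0.13, adjusted p = 8.66e-05), and stood at 0.01 with the FPKM total (adjusted p = 0.941).

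Snhg6, whose host RNA carries a single snoRNA gene, had 77 and 153 counts in CPEB1 IP and 59 and 91 in IgG, or 32.1 and 31.6 CPM against 44.8 and 66.3. It was 1.83-fold lower in CPEB1 IP by the edgeR test (log2 fold change -0.87, SE 0.21, adjusted p = 0.00316), and its IgG libraries lay farther apart than those of CPEB1 IP. Without IgG replicate 2 the log2 fold change was -0.51 and the call was lost (adjusted p = 0.126), and with the FPKM total it was -0.06. Exons of Snhg6 share 127 bases with Mcmdc2 on the other strand, and the library method does not keep strand, so a part of its counts could belong to either gene.

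Snhg8, a short host of 853 bases, and Snhg12 were not called in CPEB1 IP against IgG. Snhg8 had 31.7 and 38.0 CPM in CPEB1 IP and 42.5 and 42.2 in IgG, a log2 fold change of -0.33 (SE 0.21, edgeR adjusted p = 0.245) that was 0.48 with the FPKM total. Snhg12 had 24.2 and 25.6 CPM against 41.0 and 29.1, a log2 fold change of -0.55 (SE 0.25, edgeR adjusted p = 0.0919) that was 0.26 with the FPKM total. Neither passed the test. The groups of both genes did not overlap, but with 2 libraries against 2 an exact permutation p cannot fall below 0.333. The share of all genes without overlap was not computed. Calls on Gas5, Snhg1 and Snhg6 were also lost in edgeR with no filter on low counts, at -0.28, -0.40 and -0.47. All genes moved in that setting, by a median of 0.40 from the filtered edgeR fit with TMM, and by 0.28 with DESeq2. DESeq2 called Gas5 (-0.39, adjusted p = 0.00232) and Snhg1 (-0.52, adjusted p = 0.00944), each at a smaller fold change than edgeR, and not Snhg6 (-0.59, adjusted p = 0.110).

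**Figure D3:**
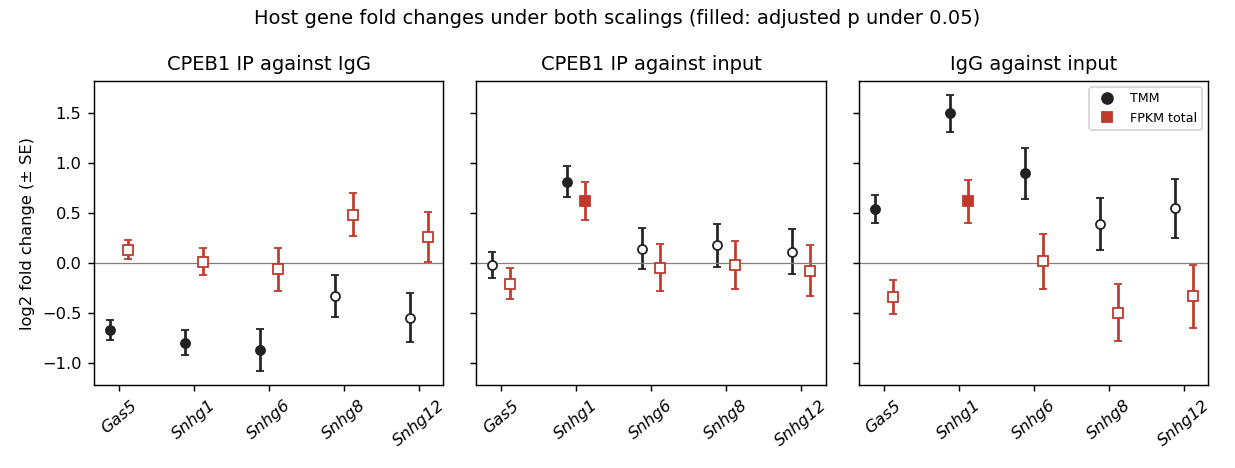
Log2 fold change with its standard error for the 5 tested host genes in the 3 comparisons, with TMM scaling as circles, library sizes from the FPKM total as squares, and filled symbols where the adjusted p is under 0.05. Gas5, Snhg1 and Snhg6 are filled and below 0 in CPEB1 IP against IgG with TMM alone, and Snhg1 is filled and above 0 under both scalings in the other 2 panels.

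Another criterion, from the study's methods, sets FPKM of CPEB1 IP against FPKM of IgG within each experiment, here after adding 1 to both. It asks for a ratio of more than 2 in both experiments and for a count call. The study took that call from DESeq2, and the edgeR call was used here. The criterion was met by 0 of the 5 tested members, against 12.1% of the 12124 genes tested. As 0 of these 5 had a higher edgeR call, that result was already fixed. The ratio alone was met by 0 of the 6 host genes, against 3.35% of all 55376 genes. That share includes genes without counts, which cannot pass a ratio of 2. Among the 12124 genes tested, at least the 12.1% that met the whole criterion passed the ratio. The ratios of the 5 tested members ran from 0.830, for Snhg6 in experiment 2, to 1.52, for Snhg8 in experiment 2. Gas5 had 1.16 and 1.04, and Snhg1 had 0.919 and 1.07.

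Against input, Snhg1 was the host gene that rose in CPEB1 IP. It had 182 and 187 counts in input, or 55.9 and 58.9 CPM, below both CPEB1 IP libraries at 89.2 and 104. The edgeR test gave a 1.75-fold higher level (log2 fold change 0.81, SE 0.16, adjusted p = 0.00178). The FPKM total gave 0.62 (adjusted p = 0.0149), so the direction did not depend on the scaling, and of 11 alternatives only leaving out CPEB1 IP replicate 2 lost the call (0.65, adjusted p = 0.0850). This was 1 of 5 members called higher, against 17.0% of the 12171 genes tested, and 0 called lower, against 15.8%.

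The other host genes did not differ detectably between CPEB1 IP and input. Gas5 had 1655 and 1405 counts in input, or 508 and 442 CPM, on either side of CPEB1 IP at 447 and 458. Its log2 fold change was -0.02 (SE 0.13, edgeR adjusted p = 0.925), and -0.21 with the FPKM total (adjusted p = 0.330). Snhg6 (0.14, SE 0.20), Snhg8 (0.17, SE 0.21) and Snhg12 (0.11, SE 0.23) had edgeR adjusted p of 0.621, 0.566 and 0.736, and all 3 fell just below 0 with the FPKM total, at -0.05, -0.02 and -0.08. The members' median was 0.14 and that of all genes 0.00 with TMM scaling, and these were -0.05 and -0.19 with the FPKM total.

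IgG against input shows what the control precipitation itself retained. With TMM scaling 3 of 5 members were higher in IgG, against 21.4% of the 12980 genes tested, and 0 were lower, against 19.4%. Snhg1 rose the most of the 5, from 55.9 and 58.9 CPM in input to 157 and 167 in IgG, which is 2.82-fold (SE 0.18 on the log2 scale, edgeR adjusted p = 2.87e-08). With the FPKM total it was still higher (0.62, adjusted p = 0.00938), and it passed the threshold in all 11 alternatives. Gas5 was 1.45-fold higher (log2 fold change 0.54, SE 0.14, edgeR adjusted p = 0.00233) and turned to -0.34 with the FPKM total. Snhg6 was 1.86-fold higher (0.90, SE 0.25, edgeR adjusted p = 0.00447) and was 0.01 with the FPKM total.

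Snhg8 was at 0.39 (SE 0.26) and Snhg12 at 0.55 (SE 0.29) in IgG over input and did not pass the edgeR test (adjusted p = 0.242 and 0.137), and both were negative with the FPKM total, at -0.50 and -0.33. The median of all genes moved from 0.03 to -0.85 between the scalings, and all 5 members were above it. That this held under both scalings adds no support, since all genes moved nearly alike. Without IgG replicate 2, Gas5 (0.37, adjusted p = 0.290) and Snhg6 (0.57, adjusted p = 0.241) were no longer called. Both calls were also lost with DESeq2 (0.40 and 0.75, adjusted p = 0.0579 and 0.217). The same held in edgeR with no filter on low counts (0.27 and 0.62). All genes moved by a median of -0.14 with DESeq2 and -0.27 with no filter.

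Reads spread evenly over the genome would add to every gene by its length. At the 32006 genes with 0 counts in both input libraries, IgG held 0.767 to 0.816 counts per kilobase and CPEB1 IP 0.258 to 0.473. At that density a tested member would hold at most 4.90% of its IgG counts, for Snhg12, and at most 1.07% of its CPEB1 IP counts. For Gas5 in IgG replicate 1 this is 2.89 of 817 counts, and for Snhg1 2.28 of 207. The share was not estimated for other hosts.

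Markers of other cells also moved with the groups. The summed level of 4 blood cell markers was 22.8 to 39.7 CPM in IgG, 5.07 to 6.88 in CPEB1 IP and 2.41 to 6.42 in input, with 2 of the 4 at 0 in each input library. That of 4 fibro-adipogenic markers was 361 to 427 CPM in IgG, 482 to 512 in CPEB1 IP and 235 to 301 in input. Endothelial markers were at 110 to 136, 137 to 147 and 103 to 104 CPM in the same order, myofibre markers at 107 to 124, 113 to 149 and 58.8 to 74.6, and Schwann cell and mural markers at 210 to 222, 234 to 236 and 295 to 382. The sort gate was set against the first 3 of these cell types. The part of these transcripts in the host gene results was not tested. The groups differ in precipitation, so these sums give neither numbers of cells nor RNA per cell.

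A ratio between host genes of the same library needs no scaling at all. Gas5 made up 74.3% to 79.0% of the 6 genes' counts in input, 68.5% to 71.4% in IgG and 69.6% to 71.6% in CPEB1 IP, so both precipitates lay below input and overlapped each other. Per 100 counts of Gas5, Snhg1 had 11.0 (95% exact binomial interval 9.38 to 12.8) and 13.3 (11.4 to 15.5) counts in input. It had 25.3 (21.6 to 29.5) and 21.9 (18.9 to 25.3) in IgG, and 19.9 (17.1 to 23.1) and 22.7 (20.6 to 25.0) in CPEB1 IP. No precipitate overlapped input, and the intervals, which cover counting error only, did not meet. The log2 difference to input was 0.81 for CPEB1 IP and 0.96 for IgG, each with an exact two-sided permutation p of 0.333, the smallest that 2 libraries against 2 can give. CPEB1 IP and IgG overlapped, with a log2 difference of -0.15 (exact permutation p = 0.667).

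The other hosts kept closer to Gas5. Snhg6 had 5.74 and 6.90 counts per 100 of Gas5 in input, 7.22 and 8.71 in IgG and 7.17 and 6.89 in CPEB1 IP. Snhg8 had 5.44 and 8.40 in input, 6.85 and 5.55 in IgG and 7.08 and 8.29 in CPEB1 IP. Snhg12 had 4.29 and 5.91 in input, 6.61 and 3.83 in IgG and 5.40 and 5.59 in CPEB1 IP. For Snhg8 and Snhg12 the precipitates overlapped input, and for Snhg6 both IgG values were above input with overlapping counting intervals. Between CPEB1 IP and IgG the values of Snhg8 did not overlap and were higher in CPEB1 IP (log2 difference 0.31), and those of Snhg6 did not overlap and were lower (-0.17), each with an exact two-sided permutation p of 0.333, again the smallest possible. Snhg12 overlapped (0.13, exact permutation p = 1.0).

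**Figure D4:**
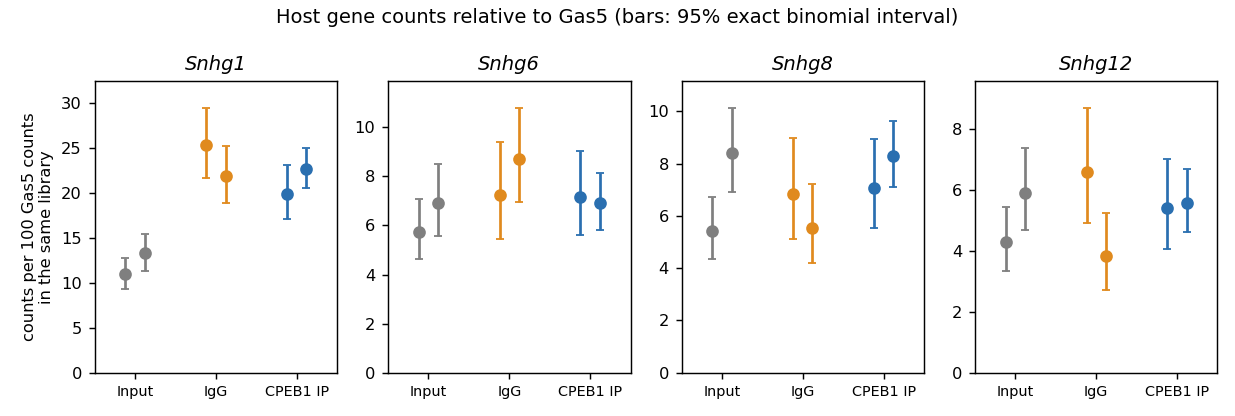
Counts of Snhg1, Snhg6, Snhg8 and Snhg12 per 100 counts of Gas5 in the same library, with 95% exact binomial intervals and an axis from 0 in each panel. Snhg1 lies between 11.0 and 13.3 in input and between 19.9 and 25.3 in the precipitates, and the values of Snhg8 and Snhg12 in the precipitates overlap those in input.

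Snhg3, which hosts a pair of H/ACA snoRNAs, was at the limit of detection. It had 2 and 2 counts in input, 0 and 1 in IgG and 2 and 3 in CPEB1 IP. A count of 0 in IgG replicate 1 allows up to 3 counts, or 2.34 CPM of the counts on genes, so no difference was detectable at this depth. Only 135 of its 986 exon bases (13.7%) are free of another gene, since it overlaps Rcc1 on its own strand and Gm17300 on the other, and reads in shared bases may not have been assigned to it.

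Of the other noncoding snoRNA hosts, 14 of 18 listed genes were in the tables and 10 had a mean count of at least 20. They were mostly higher in CPEB1 IP than in input: 7 of 10 were called higher and 0 lower with TMM scaling, against 17.0% and 15.8% of all genes, with a median log2 fold change of 0.86. Under the other scaling, the FPKM total, the median was 0.67, and that of all genes was -0.19. Against IgG 0 were higher and 3 lower, with a median of -0.20 that turned to 0.61 with the FPKM total. IgG over input gave 7 higher and 0 lower. The median was 0.97, and 0.10 with the FPKM total, beside -0.85 for all genes. A rise in CPEB1 IP over input was not particular to these hosts. With TMM scaling 32 of 67 coding genes that hold a snoRNA were higher and 1 lower (median 0.40). Of 16 TOP mRNAs 12 were higher and 0 lower (median 0.50), and of 10 mRNAs of nonsense-mediated decay factors 2 were higher and 1 lower.

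The largest rises in CPEB1 IP over input among these hosts were Snhg14 (log2 fold change 1.47, SE 0.37), a host of the imprinted Prader-Willi region, Epb41l4aos (1.40, SE 0.24), Snhg15 (1.08, SE 0.17) and Snhg5 (1.05, SE 0.17), with edgeR adjusted p of 0.00849, 0.000699, 0.000407 and 0.000603. The host 2410006H16Rik was 2.01-fold higher (SE 0.16 on the log2 scale, edgeR adjusted p = 0.000583). With the FPKM total these 5 were still called, at 1.28, 1.22, 0.90, 0.86 and 0.82. Zfas1 (0.71, SE 0.21, adjusted p = 0.0185) and Snhg17 (0.61, SE 0.16, adjusted p = 0.0122) were also higher, and with the FPKM total neither was called (0.52 and 0.43). The call on Zfas1 was also lost without CPEB1 IP replicate 1 (0.77), CPEB1 IP replicate 2 (0.61) or input replicate 1 (0.54), that on Snhg17 without CPEB1 IP replicate 2 (0.51), and that on Snhg14 without CPEB1 IP replicate 1 (1.30). DESeq2 called neither Zfas1 (0.67, adjusted p = 0.130) nor Snhg14 (1.46, adjusted p = 0.0660). Snhg14 had 15 and 16 counts in input (0.125 and 0.148 FPKM) and 36 and 55 in CPEB1 IP (0.376 and 0.296 FPKM). Such counts at so low an FPKM belong to a long gene, to which evenly spread reads add more. That share was not estimated for Snhg14. Snhg4 (0.31), Snhg20 (0.71) and Dancr (0.42) did not pass the edgeR test (adjusted p = 0.193, 0.0580 and 0.323). The members Gas5, Snhg6, Snhg8 and Snhg12 had values between -0.02 and 0.17 in that comparison, below each of these 10 genes. The difference between the 2 sets of hosts was not tested.

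Against IgG, Zfas1 (-0.83, SE 0.17), Snhg4 (-0.78, SE 0.15) and Snhg14 (-1.61, SE 0.28) were lower with TMM scaling by the edgeR test (adjusted p = 0.0010, 0.000560 and 0.000210), as Gas5, Snhg1 and Snhg6 were. Snhg14 was still lower with the FPKM total (-0.80), while Zfas1 was at -0.02 and Snhg4 at 0.03. The part of evenly spread reads in the Snhg14 difference was not estimated. Zfas1 and Snhg4 were also not called with DESeq2 (-0.54 and -0.49, adjusted p = 0.0773 and 0.0611) or in edgeR with no filter on low counts (-0.42 and -0.37). Snhg5 (0.14), Snhg17 (0.09), Snhg15 (-0.01), Dancr (-0.14), Epb41l4aos (-0.12), 2410006H16Rik (-0.26) and Snhg20 (-0.30) were not called. All of these 7 were above 0 with the FPKM total, and Snhg5 (0.95), Snhg17 (0.90), Snhg15 (0.80), Epb41l4aos (0.69) and 2410006H16Rik (0.55) passed the threshold. That scaling put 7149 of the 12124 genes tested past the threshold as higher, with a median of 0.80, and of these 5 hosts Epb41l4aos and 2410006H16Rik lay below that median and Snhg15 on it. With no filter on low counts, where all genes moved by a median of 0.40, Snhg17 was called as well (0.49, edgeR adjusted p = 0.0221). No other host met the FPKM criterion, and Snhg5 came closest, with ratios of 1.72 and 2.04.

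In IgG over input, Zfas1 (1.42, edgeR adjusted p = 1.06e-05), 2410006H16Rik (1.15, adjusted p = 4.51e-05), Epb41l4aos (1.41, adjusted p = 0.000354), Snhg15 (0.97, adjusted p = 5.61e-05), Snhg4 (0.97, adjusted p = 0.000282), Snhg5 (0.79, adjusted p = 0.00657) and Snhg14 (2.95, adjusted p = 1.32e-07) were higher with TMM scaling. Of these, Snhg14 alone passed the threshold with the FPKM total. The share of evenly spread reads in its 46 and 55 IgG counts was not estimated. Snhg17 (0.40), Snhg20 (0.89) and Dancr (0.44) were not called, and Snhg17 was at -0.46 with the FPKM total (adjusted p = 0.0412). Without IgG replicate 1, Snhg5 was no longer called (0.67), nor was it with no filter on low counts (0.52, adjusted p = 0.138). DESeq2 did not call Snhg5 (0.65, adjusted p = 0.233), Snhg4 (0.83, adjusted p = 0.0656) or Epb41l4aos (1.28, adjusted p = 0.0703). Snhg17 and Snhg20 passed the threshold as higher in 4 alternatives each, at 0.41 to 0.65 and 0.89 to 1.15, among them without input replicate 1 for Snhg17 (0.65) and without IgG replicate 1 for Snhg20 (1.15).

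**Figure D5:**
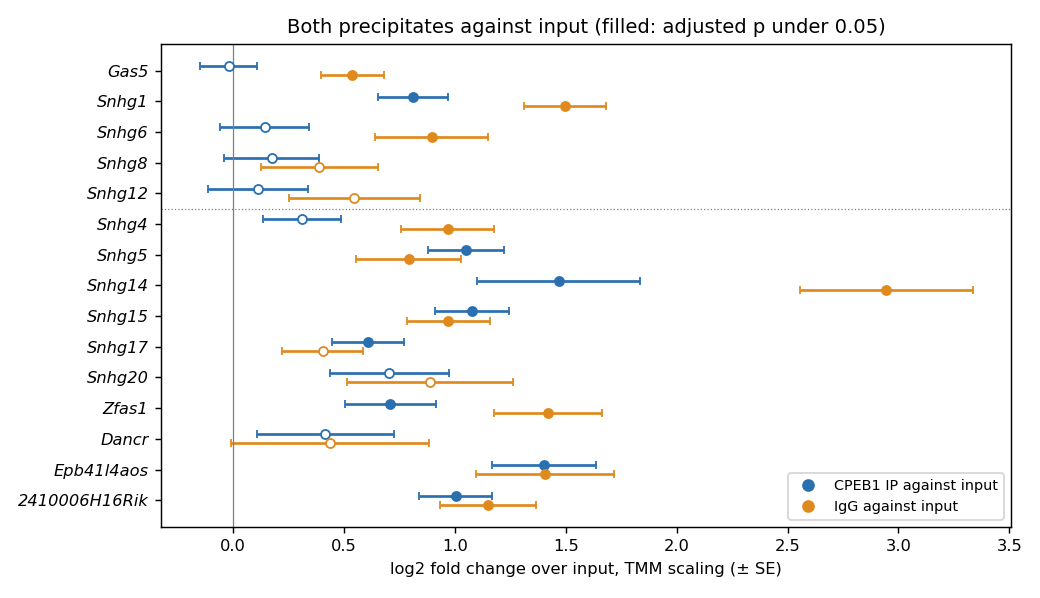
Log2 fold change over input with its standard error, TMM scaling, for the 5 tested members (above the dotted line) and 10 other noncoding snoRNA hosts, with CPEB1 IP in blue, IgG in orange and filled symbols where the adjusted p is under 0.05. In CPEB1 IP, Gas5, Snhg6, Snhg8 and Snhg12 lie between -0.02 and 0.17 and the other hosts between 0.31 and 1.47; with the FPKM total as library size, which is not drawn, Gas5 was at -0.21 and Snhg6, Snhg8 and Snhg12 were between -0.08 and -0.02.

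By the whole pattern over the 6 libraries, the gene most like Snhg1 was Zfas1, another snoRNA host. Likeness was the Euclidean distance between centred log2 CPM values over the 6 libraries, among 6949 genes with a mean of at least 20 CPM, and the distance to Zfas1 was 0.225. Cdh23 and Rsbn1l followed at 0.347 and 0.359. Clock, 4931406P16Rik and Mfsd14a were closest to Gas5, at 0.183, 0.183 and 0.185. Dlg1, Vps13a and Naa40 were closest to Snhg6, Phf3, Slc44a1 and Dhx36 to Snhg8, and Cecr2, Kansl1l and Brpf3 to Snhg12. Of these 15 nearest genes 1 was a host on the list, and among the members themselves Gas5 and Snhg6 were the closest, at 0.415, with Snhg1 at 0.830 or more from each of the others.

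The mRNAs of proteins that work on snoRNAs were compared by the same test, and no protein was measured. Of 4 mRNAs of core proteins of H/ACA particles, which carry out pseudouridylation, 3 were higher in CPEB1 IP than in IgG with TMM scaling. The other 1 was lower. Of all genes tested 14.7% were higher and 18.7% lower, the shares against which the counts of each list that follows are to be read. Dkc1, the pseudouridine synthase, was higher (log2 fold change 0.73, SE 0.11) and so was Nhp2 (0.45, SE 0.10), while Gar1 was lower (-0.51, SE 0.18). Of 4 mRNAs of core proteins of C/D particles, which carry out methylation, 2 were higher, Snu13 (0.52, SE 0.11) and Nop58 (0.35, SE 0.09). Of 10 mRNAs of assembly factors 3 were higher and 0 lower. Those higher encode the ATPases Ruvbl1 (1.14, SE 0.15) and Ruvbl2 (0.61, SE 0.14) and the nucleolar chaperone Nolc1 (0.93, SE 0.10). With the FPKM total the medians of these 3 lists were 1.24, 1.06 and 1.15, against 0.80 for all genes and 0.13 for the host members.

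Of 10 mRNAs of nonsense-mediated decay factors 1 was higher and 2 were lower in CPEB1 IP than in IgG with TMM scaling. This was near the 14.7% and 18.7% of all genes. The median of the list was -0.20, and 0.61 with the FPKM total, beside 0.80 for all genes. The kinase Smg1 (-0.42, SE 0.10) and Smg5 (-0.48, SE 0.13) were the lower genes and Smg8 (1.04, SE 0.36) the higher. Of 16 TOP mRNAs, which encode translation factors and other RNA-binding and ribosome-associated proteins, 7 were higher and 0 lower, against 14.7% and 18.7% of all genes, with a median of 0.23. They were led by the elongation factor Eef2 (0.66, SE 0.09), the splicing protein Hnrnpa1 (0.56, SE 0.10) and the initiation factor subunit Eif3e (0.37, SE 0.10). The median of the 5 host genes was -0.67. With the FPKM total the medians of TOP mRNAs and host genes were 1.04 and 0.13.

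Among 72 coding genes that hold a snoRNA on their strand, 67 were tested, of which 16 were higher and 7 lower in CPEB1 IP than in IgG, against 14.7% and 18.7% of all genes, with a median of 0.04 beside -0.01 for all genes. With the FPKM total these medians were 0.85 and 0.80. Ncapd2 (-1.32, SE 0.39), Cep295 (-0.93, SE 0.31) and Tcp1 (0.80, SE 0.10) moved the most among those called. All 5 nuclear long noncoding RNAs on the list were lower, with a median of -1.32, and Neat1 (-1.67, SE 0.10), a paraspeckle scaffold, Kcnq1ot1 (-1.38, SE 0.09) and Malat1 (-1.32, SE 0.11) led them. Their median was still negative with the FPKM total, at -0.51, which was not so for the noncoding host members.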

How the data were processed

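Counts and FPKM of 6 libraries were used as deposited. The authors used HISAT for mapping to mm10 and featureCounts for raw counts per gene, without normalization, and computed the deposited FPKM from these counts, the merged exon length and a library total larger than the counts on genes. The annotation release, strand setting and treatment of multi-mapping reads are not given in the sources used here; spans of the 6 host genes equal GENCODE M21. No sample column was left unused (0). Raw counts were compared 2 groups at a time in edgeR 4.0.16 (R 4.3.3) after filterByExpr and TMM, with its quasi-likelihood test, and p-values were adjusted by Benjamini-Hochberg over all genes tested (threshold 0.05). The SE is the log2 fold change divided by the square root of F. CPM are TMM-scaled over 6 libraries, except marker sums, which are scaled to the counts on genes. Procedures were tested on simulated data. Alternatives were DESeq2 1.42.0, other library sizes, no filter, a replicate block, 1 fit of all 6 libraries and each library left out; for the FPKM ratio (pseudocount 1), other pseudocounts, crossed pairs, an FPKM minimum and rescaling. Promoter windows are RefSeq and transcripts GENCODE M21. The members and lists were chosen with earlier results of these data known. All 6 members, other noncoding hosts with a mean count of at least 20, and from each other list at most 3 called genes with the largest fold change of CPEB1 IP over IgG are named, and for each member the 3 nearest genes. Binomial intervals are Clopper-Pearson at 95%. Sequences and figures used Python 3.11.15, scipy 1.17.1 and matplotlib 3.10.9.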

Additional observations from a re-analysis of the deposited data

How the results depend on the processing

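With 2 libraries per group and IgG libraries of 1284716 and 1359052 counts, differences in Snhg3 were not detectable at this depth, and calls on host genes in CPEB1 IP against IgG changed with the scaling of libraries. Over 11 alternatives in each comparison, 123 of 165 fold changes of the 15 named hosts kept direction and side of the threshold in CPEB1 IP against IgG, 147 of 165 in CPEB1 IP against input and 133 of 165 in IgG against input. Causes were not tested.

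With library sizes from the FPKM total, CPEB1 IP against IgG became 0.13 for Gas5, 0.012 for Snhg1, 0.48 for Snhg8, 0.26 for Snhg12, 0.034 for Snhg4, 0.80 for Snhg15, 0.51 for Snhg20, 0.67 for Dancr, 0.69 for Epb41l4aos and 0.55 for 2410006H16Rik, with 0 members lower where TMM gave 3, and 7149 genes higher and 937 lower where TMM gave 1779 and 2265. CPEB1 IP against input became -0.047 for Snhg6, -0.022 for Snhg8 and -0.080 for Snhg12, with 1235 genes higher in place of 2069. IgG against input became -0.34 for Gas5, -0.50 for Snhg8, -0.33 for Snhg12, -0.090 for Snhg5, -0.46 for Snhg17 and -0.44 for Dancr, with 1 member higher in place of 3, and 1108 genes higher and 7180 lower in place of 2772 and 2515.

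With no filter on low counts, CPEB1 IP against IgG was 0.075 for Snhg8, 0.39 for Snhg15, 0.10 for Snhg20, 0.27 for Dancr, 0.28 for Epb41l4aos and 0.14 for 2410006H16Rik, with 0 members lower and 3513 genes higher, and IgG against input had 1 member higher. With DESeq2, CPEB1 IP against IgG was 0.27 for Snhg15, 0.14 for Dancr, 0.16 for Epb41l4aos and 0.022 for 2410006H16Rik, with 984 genes lower. DESeq2 gave 1222 genes higher and 1181 lower for CPEB1 IP against input, and 1 member and 1004 genes higher and 1530 genes lower for IgG against input. Snhg15 in CPEB1 IP against IgG was 0.000848 with RLE size factors and 0.053 with all 6 libraries in 1 fit. Genes that met the FPKM criterion fell from 1464 to 673 with a pseudocount of 5 and to 76 with FPKM rescaled by TMM, and 0 members met it in any setting.

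Leaving out 1 library at a time, members called lower in CPEB1 IP against IgG ranged from 2 to 3, genes higher from 1054 to 1783 and genes lower from 677 to 1750. There Snhg15 ranged from -0.024 to 0.071, Snhg20 from -0.53 to 0.10, Dancr from -0.60 to 0.76 and Epb41l4aos from -0.14 to 0.000694. In CPEB1 IP against input, members higher ranged from 0 to 1, genes higher from 957 to 2646 and genes lower from 1064 to 2347, with Gas5 from -0.13 to 0.067, Snhg8 from -0.036 to 0.39 and Snhg12 from -0.030 to 0.24. In IgG against input, members higher ranged from 1 to 3, genes higher from 1354 to 2170 and genes lower from 1709 to 2400, with Dancr from -0.43 to 0.94.

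Deviations of same-numbered libraries correlated at -0.011, -0.021 and 0.032 over 14276 genes, and only 2 pairs exist. These values show no shared deviation and cannot say whether the libraries were paired by experiment. With the replicate number as a block, 3 members were lower in CPEB1 IP against IgG (1739 genes higher, 2231 lower), Snhg1 was at 0.80 in CPEB1 IP against input, and 3 members were higher in IgG against input. The block changed no member's call, and among the other hosts it brought Snhg17 in IgG against input past the threshold (0.42).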
